A study of Mus musculus with 62 samples.

Results

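The 35 genes described here encode complement proteins, their regulators and 2 of their receptors, and were taken by symbol from the 47643 genes of a liver RNA table with 62 libraries. All 35 had a row and all 35 passed the filter on low values, at least 1 TPM (a read share scaled for transcript length, with a fixed total per library) in at least 5 libraries, as did 12160 genes in all. The libraries came from livers of female mice that, at 2 months of age, were injected with melanoma cells that cause cachexia (CAC), with melanoma cells that do not (NCAC) or were mock injected (Con). The tissue was collected at 2, 4, 6 and 8 weeks. Each arm and week had 5 libraries, except CAC at 8 weeks with 7. The sample labels name the strain as C57BL6/J, the design text names NCI Ath/nude mice, and the extraction protocol mentions LLC cells and 3 weeks, which are no group here, so the host strain could not be settled. The melanoma lines are not named in the labels, and each arm rests on the line it was given. The labels call the libraries biological replicates, and each was taken as 1 animal.

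Complement is a set of plasma proteins, most of them made by hepatocytes, that mark microbes and damaged cells for removal. Recognition proteins such as C1q and the mannose-binding lectins activate serine proteases, which cut C4, C2 and then C3. The alternative pathway reaches C3 through factors B and D and properdin, and all routes end in a pore built from C5 to C9. Soluble and membrane-bound regulators keep the cascade off the host's own cells, and several components are known as acute phase proteins of the liver. In liver, C1q, properdin and ficolin A are known as products of resident macrophages, the Kupffer cells.

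In the CAC liver complement transcripts moved apart rather than together. Against Con, the central components C3 and C4b, the pore subunit C8a and all 5 soluble regulators (Serping1, Cfi, C4bp, Vtn and Clu) were higher at 4, 6 and 8 weeks. The lectin Mbl2, the pore subunit C8g and the membrane regulator Cd59a were lower at 8 weeks, Mbl2 and Cd59a already at 6. At 2 weeks 0 of 35 members passed the test (limma, adjusted p under 0.05 over all genes tested), where 2 had an unadjusted p under 0.05 and 0.00822% of all genes were called. At 4 weeks 8 members were higher and 0 lower, beside 1.30% and 0.609% of all genes. The counts were 10 higher and 3 lower at 6 weeks, beside 5.00% and 10.3%, and 13 higher and 8 lower at 8 weeks, beside 5.87% and 35.3%. So the share of members that were lower at 8 weeks was below that of all genes, and the share that were higher was above it. The median difference of all genes at 8 weeks was -0.208 on the log2(TPM + 1) scale, and that of the members 0.18. Rescaling by median of ratios took the median of all genes to -0.00239, and the members then split into 17 higher and 3 lower, beside 12.8% and 13.9% of all genes. At 6 weeks the median of all genes was -0.122, and the rescaled split was 11 higher and 1 lower, beside 8.5% and 5.82% of all genes.

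**Figure D1:**
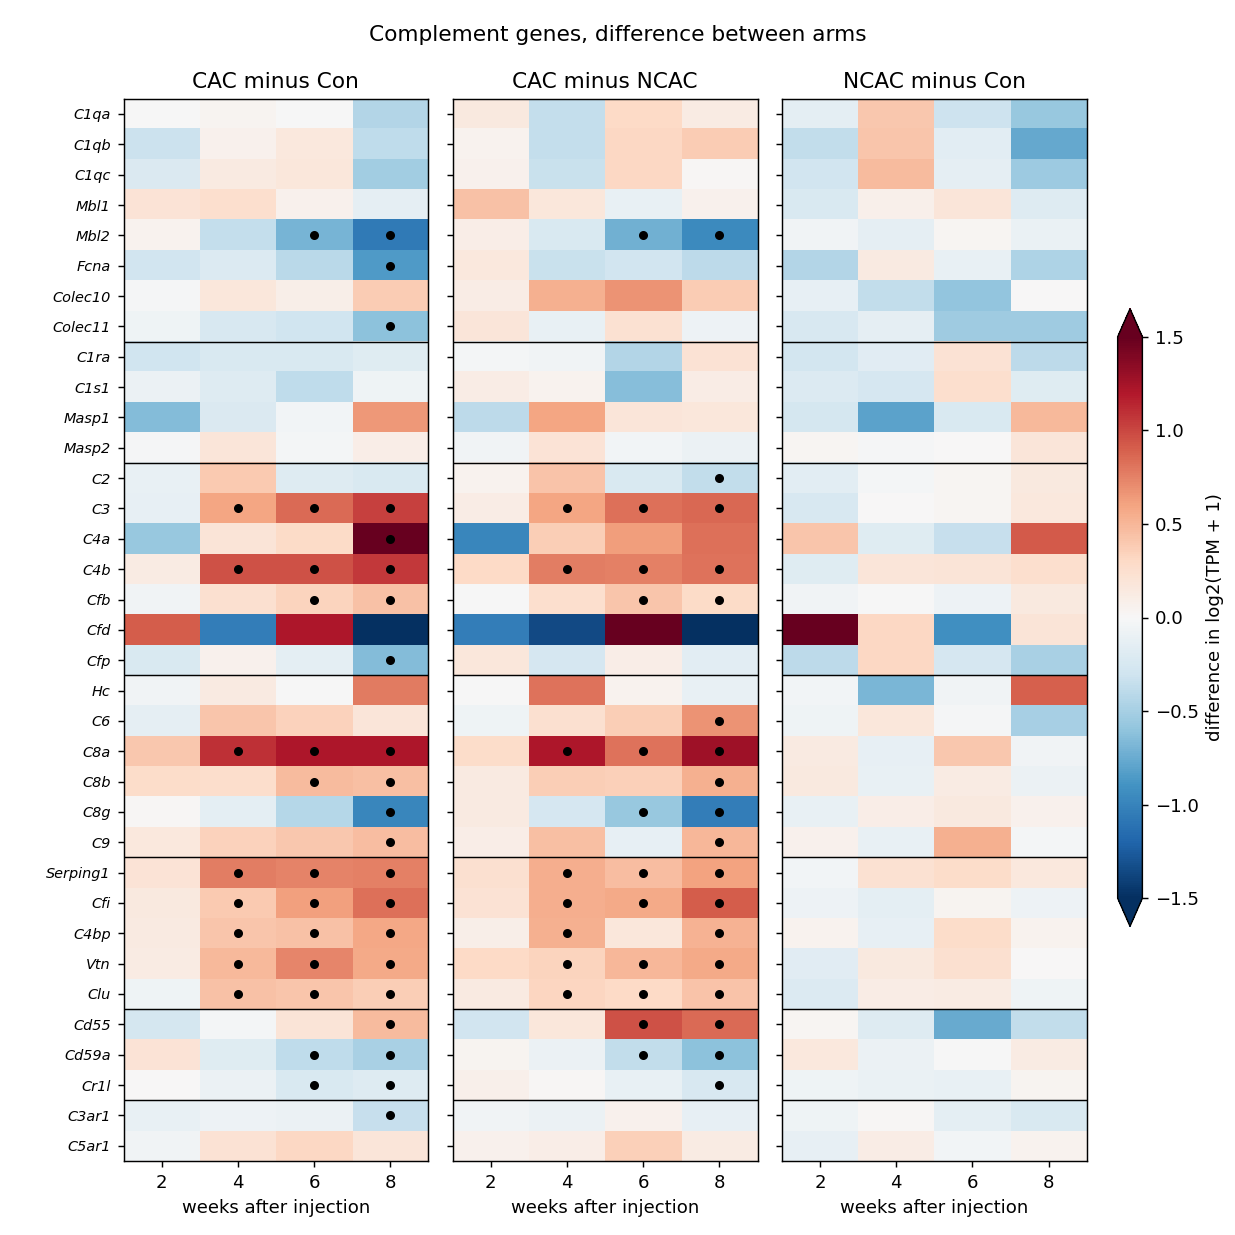
Differences between arms in log2(TPM + 1) for the 35 genes (rows, grouped by role with lines between roles) at 2, 4, 6 and 8 weeks (columns), with colours capped at 1.5 and dots on values with an adjusted p under 0.05. The first 2 panels share the CAC libraries, and the NCAC minus Con panel has no dot.

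Against NCAC the same 8 members were higher at 4 weeks, beside 1.11% of all genes. There were 9 higher and 3 lower members at 6 weeks, beside 6.55% and 5.54%, and 13 higher and 5 lower at 8 weeks, beside 5.09% and 43.1%. At 2 weeks 0 members passed, 5 had an unadjusted p under 0.05, and 0% of all genes were called. The comparisons with Con and with NCAC share the CAC libraries. Between NCAC and Con, 0 of 35 members passed limma's test at any week. The members with an unadjusted p under 0.05 were 1, 2, 8 and 8 at the 4 weeks. The share of all genes at that unadjusted threshold was not taken, here or in the other comparisons. All genes were called at 0% at 2, 4 and 6 weeks and at 0.181% at 8 weeks in that comparison. Con livers at 8 weeks differed from those at 2 weeks in 0 members, beside 0.296% of all genes.

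Promoter sequences show what the members that rose or fell carry next to their start sites. RefSeq promoters (GRCm38.p6) were found for 25 of the 35 members, and the 250 bases before the start were searched on both strands for letter patterns of 4 factors of liver genes. The patterns were TTCNNNGAA for STAT factors, TTNNGNAA for C/EBP factors, the NF-kB consensus and GTTAAT for HNF1. The first 3 factors are known regulators of acute phase genes, and HNF1 is a hepatocyte factor. Printed are 5 members that were higher in CAC livers and the 2 with the largest decreases against Con among those that passed the test at 8 weeks, 5′ to 3′, with STAT, C/EBP and HNF1 matches in capitals.
C3, chr17:57228137-57228386, minus strand: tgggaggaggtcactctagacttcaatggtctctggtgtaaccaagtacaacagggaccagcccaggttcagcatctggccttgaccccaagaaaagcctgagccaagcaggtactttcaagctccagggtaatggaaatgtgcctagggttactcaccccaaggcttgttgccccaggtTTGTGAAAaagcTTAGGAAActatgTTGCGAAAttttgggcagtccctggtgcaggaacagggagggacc
C8a, chr4:104876399-104876648, minus strand: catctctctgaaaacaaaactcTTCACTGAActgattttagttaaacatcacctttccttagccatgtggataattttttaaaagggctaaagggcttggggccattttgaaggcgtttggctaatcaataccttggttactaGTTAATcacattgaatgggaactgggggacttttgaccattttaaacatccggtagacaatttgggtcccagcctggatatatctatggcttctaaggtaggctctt
C8b, chr4:104766067-104766316, plus strand: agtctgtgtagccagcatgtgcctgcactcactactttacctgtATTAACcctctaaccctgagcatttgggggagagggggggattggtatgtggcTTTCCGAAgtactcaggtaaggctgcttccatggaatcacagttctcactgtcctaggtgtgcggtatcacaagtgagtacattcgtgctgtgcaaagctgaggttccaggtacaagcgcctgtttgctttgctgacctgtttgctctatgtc
C4bp, chr1:130661619-130661868, minus strand: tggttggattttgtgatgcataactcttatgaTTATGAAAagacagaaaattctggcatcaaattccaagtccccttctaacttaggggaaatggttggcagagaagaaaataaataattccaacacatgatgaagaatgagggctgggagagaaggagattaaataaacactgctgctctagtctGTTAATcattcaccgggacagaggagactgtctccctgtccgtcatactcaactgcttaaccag
Vtn, chr11:78498870-78499119, plus strand: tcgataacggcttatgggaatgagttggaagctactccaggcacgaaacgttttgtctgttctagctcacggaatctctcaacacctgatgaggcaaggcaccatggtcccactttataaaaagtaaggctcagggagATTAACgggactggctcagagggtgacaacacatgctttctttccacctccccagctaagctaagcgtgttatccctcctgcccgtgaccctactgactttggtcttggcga
Mbl2, chr19:30232678-30232927, plus strand: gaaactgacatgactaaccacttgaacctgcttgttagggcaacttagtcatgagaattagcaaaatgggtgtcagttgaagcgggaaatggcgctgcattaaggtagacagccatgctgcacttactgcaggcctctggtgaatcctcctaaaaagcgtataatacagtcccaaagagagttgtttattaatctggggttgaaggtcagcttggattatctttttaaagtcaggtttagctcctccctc
C8g, chr2:25501720-25501969, minus strand: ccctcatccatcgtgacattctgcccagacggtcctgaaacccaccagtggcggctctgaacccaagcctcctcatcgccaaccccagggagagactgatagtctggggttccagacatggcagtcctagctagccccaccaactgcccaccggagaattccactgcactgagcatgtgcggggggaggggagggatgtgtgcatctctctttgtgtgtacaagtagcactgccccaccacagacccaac
C3 held 3 C/EBP matches within the last 70 bases, at -70, -58 and -45 from the start. C8a held a STAT match at -228 and an HNF1 match at -107. C4bp held a C/EBP match at -218 and an HNF1 match at -64, C8b the same pair at -153 and -206, and Vtn an HNF1 match at -112. The Mbl2 and C8g windows held none of the 4 patterns, which says only that these letters are not in these windows. The printed split did not hold for all changed members. Of the lower ones not printed, Fcna held a C/EBP match at -214, Cfp an HNF1 match at -18 and Colec11 a STAT match at -250. The lower Cd59a, Cr1l and C3ar1 held none. Of the higher ones not printed, Cd55 held none and C9 a C/EBP match at -132. The higher C4a, C4b, Cfb, Cfi, Serping1 and Clu had no promoter sequence and could not be searched. Every lower member had one, so the higher members are covered only in part. No printed matches overlapped. Among all 32851 RefSeq promoters given, the share that held the STAT pattern in the same window was 7.02%, with 36.8% for the C/EBP pattern, 1.21% for NF-kB and 6.43% for HNF1. The members' counts were 3, 10, 0 and 7 of 25. A match is a run of letters and was not measured as a bound site.

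C3, the protein on which all 3 pathways converge (chromosome 17, 57203970 to 57228136, mm10), was the most abundant member. At 8 weeks C3 measured 4115, 3080, 4626, 3480 and 4415 TPM in Con and 4245, 4330, 4499, 4087 and 4638 in NCAC. In the 7 CAC livers it ran from 6170 through a median of 7926 to 10160 TPM. Every CAC library lay above every library of the other arms at that week. Its difference from Con was 0.59 ± 0.12 (SE, adjusted p = 0.00209, limma) at 4 weeks, 0.85 ± 0.12 (adjusted p = 9.24e-07) at 6 and 1.02 ± 0.11 (adjusted p = 7.46e-10) at 8 weeks. The exact two-sided permutation p at 8 weeks was 0.00126, the smallest that 7 against 5 can give, as it was against NCAC. Quantile normalization ended the C3 call at 4 weeks (0.27, adjusted p = 0.221), as did a fit of that week alone (adjusted p = 0.0557).

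C4b encodes C4, cut by the classical and lectin proteases. The Con libraries of 8 weeks measured 501.9, 362.2, 504.3, 407.5 and 485.3 TPM, and NCAC livers between 486.2 and 585.5. CAC livers measured 706.6 at the lowest, 1012 at the median and 1048 at the highest, with no overlap with either arm. The rise was present at 4 weeks, where CAC libraries measured 735.3, 734.2, 877.3, 725.7 and 843.4 TPM and Con libraries at most 461.2. Differences from Con were 0.95 ± 0.13 (adjusted p = 5.61e-07), 0.96 ± 0.13 (adjusted p = 1.46e-07) and 1.06 ± 0.12 (adjusted p = 8.74e-10) at 4, 6 and 8 weeks. C4b was also the 1 member whose CAC minus Con difference passed the test for a step between neighbouring weeks. From 2 to 4 weeks it changed by 0.83 ± 0.18 (adjusted p = 0.0463), beside 0.0658% of all genes. That call was lost in 14 of the 20 fits that left out 1 library of the 4 groups, with CAC replicate 1 at 2 weeks left out giving 0.77 and an adjusted p of 0.2. The steps from 4 to 6 and from 6 to 8 weeks gave 0 members and 0% of all genes.

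C4a, the neighbouring copy (the Slp gene, annotated as a processed transcript), behaved unevenly. Its CAC libraries at 8 weeks measured 41.92, 42.89, 22.54, 217, 52.09, 123.3 and 42.35 TPM, and its Con libraries 22.83, 10.15, 23.2, 15.72 and 15.85. A single CAC library, at 22.54 TPM, lay within the Con range. The difference from Con was 1.75 ± 0.57 (adjusted p = 0.0116), and that from NCAC 0.82 ± 0.57 (adjusted p = 0.226). C4a and C4b share 35.2% of their 50-base stretches, and how the authors' quantification divided such reads is not given. Single libraries of every arm reached over 100 TPM, such as 189.8 in Con and 172.7 in NCAC at 4 weeks, and the SD within groups was 1 on the log2 scale, where the median of all genes tested was 0.229.

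Cfb encodes factor B, the alternative pathway's C2-like protease. Its Con libraries at 8 weeks measured 828, 645.2, 777.1, 730.7 and 829.2 TPM. CAC livers ran from 842.1 through 1005 to 1412 TPM, above every Con library but not above every NCAC library, the highest of which was 913.6. The differences from Con were 0.33 ± 0.10 (adjusted p = 0.0141) at 6 weeks and 0.44 ± 0.09 (adjusted p = 8.92e-05) at 8. The 6-week call ended without CAC replicate 3 (0.28, adjusted p = 0.0547). C2, the classical pathway's counterpart next to Cfb on chromosome 17, did not pass against Con at 8 weeks (-0.22 ± 0.15, adjusted p = 0.243). Against NCAC it was lower by this scaling (-0.37 ± 0.15, adjusted p = 0.0442), and the value moved to -0.06 after median-of-ratios rescaling and to -0.08 without libraries holding transcripts of other tissues (adjusted p = 0.775 and 0.748). Of the 50-base stretches of Cfb 81.4% and of C2 58.0% also lie in Gm20547, a transcript read through both genes.

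**Figure D2:**
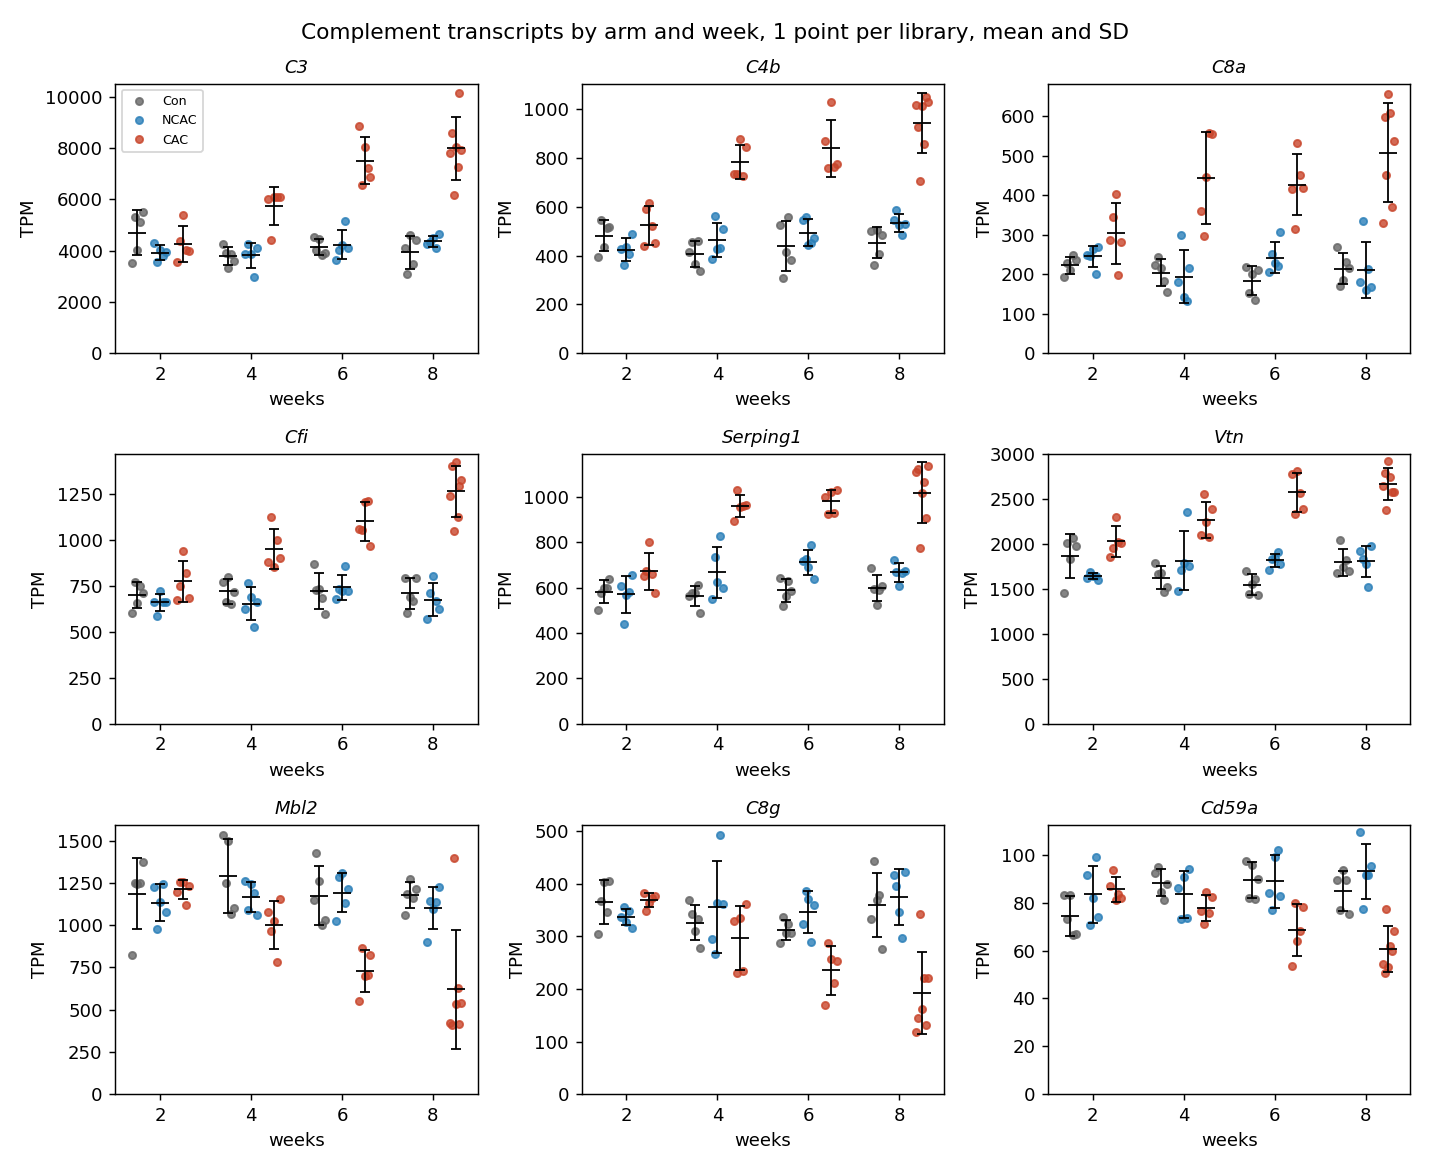
TPM of 9 members in every library by week (horizontal) and arm (colour), with bars for mean and SD. C3, C4b, Cfi, Serping1 and Vtn in CAC lay above both other arms at 8 weeks, while Mbl2, C8g and Cd59a fell with 1 CAC library apart.

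The terminal pathway split within a single protein. C8 is built from 3 chains, of which alpha and beta belong to the pore-forming family and gamma to the lipocalins. C8a and C8b lie side by side on chromosome 4 (104815679 to 104876398 and 104766317 to 104804548), C8g on chromosome 2 (25498651 to 25501719). C8a at 8 weeks measured 270.1, 169.8, 185.1, 232.1 and 216.3 TPM in Con, and 330.9 at the lowest, 538.6 at the median and 656.7 at the highest in CAC. No CAC library overlapped with Con, and 1 NCAC library, at 333.9, reached the lowest CAC value. C8a differed from Con by 1.09 ± 0.20 (adjusted p = 0.000348), 1.22 ± 0.20 (adjusted p = 1.59e-05) and 1.22 ± 0.19 (adjusted p = 1.32e-06) at 4, 6 and 8 weeks. C8b was higher by less, 0.48 ± 0.16 (adjusted p = 0.0326) at 6 and 0.45 ± 0.15 (adjusted p = 0.0124) at 8 weeks, with CAC libraries of 133.9 to 215 TPM overlapping Con libraries of 93.17 to 143.7. The C8b call at 8 weeks ended without Con replicate 3 (0.34, adjusted p = 0.0724), and that at 6 weeks ended in 7 of 10 fits that left out 1 library.

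C8g moved the other way. In Con it measured, at 8 weeks, 332.8, 442.1, 368.8, 378.1 and 275.8 TPM. CAC livers measured 118.8, 145.1, 342.4, 162.5, 221.7, 130.8 and 221.5, so that 6 lay below every Con library and replicate 3 among them. The difference was -0.98 ± 0.16 against Con (adjusted p = 3.26e-06) and -1.04 ± 0.16 against NCAC (adjusted p = 7.61e-07). A factor common to all genes of a library leaves the ratio of both chains within it unchanged. The C8a to C8g ratio of TPM at 8 weeks was 0.384 to 0.812 in Con, 0.398 to 0.845 in NCAC and 1.32 to 4.12 in CAC. At 2 weeks it was 0.522 to 0.72 in Con and 0.53 to 1.11 in CAC, and from 4 weeks on the CAC and Con ranges did not overlap (1.1 to 2.38 against 0.55 to 0.711 at 4 weeks). NCAC livers at 4 weeks ran from 0.266 to 1.13, with 1 library inside the CAC range. The C8b to C8g ratio was 0.253 to 0.521 in Con and 0.628 to 1.24 in CAC at 8 weeks. These ratios were chosen after the values were seen and have no test.

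C9, the subunit that polymerises into the pore, measured 242.6, 214.8, 250.8, 292.7 and 283.4 TPM in Con and 241 to 473.5 (median 378) in CAC at 8 weeks, where the groups overlapped. It was higher by 0.47 ± 0.17 (adjusted p = 0.0245), a call that ended without CAC replicate 7 (0.40, adjusted p = 0.0627) or Con replicate 2 (0.40, adjusted p = 0.0694). Hc, the gene of C5, did not pass at any week by the scaling used here. Its Con libraries at 8 weeks measured 103.7, 30.55, 71.71, 65.06 and 87.27 TPM and its CAC libraries 74.81 to 254, a difference of 0.78 ± 0.36 (adjusted p = 0.0765). It passed after rescaling (1.03 with median of ratios and 1.14 with quantile normalization, adjusted p = 0.0219 and 0.0124) and without CAC replicate 3 or Con replicate 1 (0.88 and 0.94, adjusted p = 0.0472 and 0.0492). Hc varied within every arm, from 30.55 to 190.8 TPM over the 20 Con libraries. The lowest of these, Con replicate 2 at 8 weeks, was also the library with the most pancreatic transcript (Ctrb1, 1906 TPM). C6, which binds C5b, was higher against NCAC at 8 weeks (0.67 ± 0.18, adjusted p = 0.00228) but not against Con (0.18 ± 0.18, adjusted p = 0.459).

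**Figure D3:**
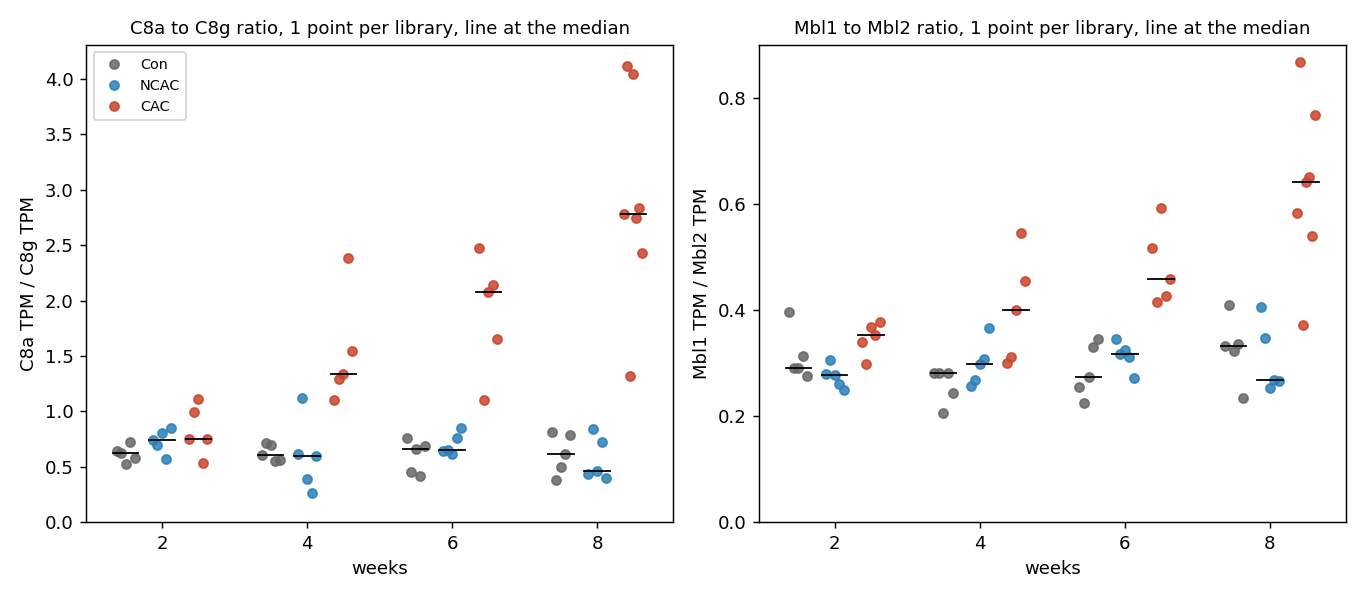
Ratios of TPM within each library, C8a to C8g and Mbl1 to Mbl2, by week (horizontal) and arm (colour), with a line at the median of each group. The C8a to C8g ratio of CAC livers lay above 1 in every library from 4 weeks on, between 1.1 and 4.12.

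Of the soluble regulators 5 of 5 were higher against Con at 4, 6 and 8 weeks. The medians over the 5 genes were 0.44, 0.61 and 0.58. At 4 weeks a fit of that week alone ended the calls of Cfi, C4bp and Vtn (adjusted p = 0.209, 0.21 and 0.114), and quantile normalization those of Cfi and Vtn (0.34 and 0.30, adjusted p = 0.167 and 0.111). Serping1 encodes the C1 inhibitor, a serpin that blocks C1r, C1s and the MASPs. At 4 weeks it measured 564.1, 577.2, 578.6, 610.8 and 489.5 TPM in Con and 894.5, 1031, 955.9, 960.8 and 964.8 in CAC. At 8 weeks Con libraries lay between 524.2 and 685.3 and CAC libraries between 774.7 and 1138. Neither week showed overlap with Con, and the differences were 0.77 ± 0.10 (adjusted p = 2.4e-07) and 0.76 ± 0.09 (adjusted p = 7.18e-09).

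Cfi encodes factor I, which cuts C3b and C4b with the help of cofactors such as the C4-binding protein. Con livers at 8 weeks measured 796.2, 603.6, 692.5, 668.1 and 794.2 TPM, NCAC livers 571.8 to 804.6 and CAC livers 1050 to 1423 (median 1292). CAC stood clear of both arms. The differences from Con were 0.40 ± 0.11 (adjusted p = 0.0305), 0.61 ± 0.11 (adjusted p = 3.67e-05) and 0.83 ± 0.10 (adjusted p = 3.58e-09) at the 3 weeks. The 4-week call was lost in 5 of 10 fits that left out 1 library, with an adjusted p of up to 0.179 (without CAC replicate 2). C4bp, the C4-binding protein, was higher by 0.41 ± 0.10 (adjusted p = 0.0155), 0.44 ± 0.10 (adjusted p = 0.00187) and 0.58 ± 0.09 (adjusted p = 3.37e-06). Its 8-week CAC libraries of 323.7 to 470.9 TPM lay above Con libraries of 214.5 to 294.7, while the 4-week call ended without CAC replicate 4 (0.33, adjusted p = 0.105) or Con replicate 5 (0.37, adjusted p = 0.0774).

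Vtn encodes vitronectin, which keeps the C5b-7 complex from inserting into membranes. Values at 8 weeks were 1676, 2050, 1745, 1818 and 1705 TPM in Con and 2375 to 2926 (median 2644) in CAC, again without overlap. The differences from Con were 0.48 ± 0.09 (adjusted p = 0.000398), 0.73 ± 0.09 (adjusted p = 2.02e-08) and 0.57 ± 0.08 (adjusted p = 5.46e-07). Clu, clusterin, blocks the same step and was higher by 0.44 ± 0.09 (adjusted p = 0.000946), 0.42 ± 0.09 (adjusted p = 0.00054) and 0.36 ± 0.08 (adjusted p = 0.000316). Its lowest CAC library at 8 weeks, 624.4 TPM, lay just above the highest Con library, 619.7, and below the highest NCAC library, 628.9. Against NCAC at 4 weeks the calls of Clu and Vtn (0.32, adjusted p = 0.044, and 0.33, adjusted p = 0.0441) were lost in 9 and 7 of 10 fits that left out 1 library.

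Every one of the 8 members with an early rise lay in all 5 CAC libraries above all 5 Con libraries at 4 weeks. Non-overlap of that kind held for 1.64% of all genes. In either direction it held for 3.57%. At 6 weeks 9 members lay above Con and 13 apart from it in either direction, beside 3.82% and 13.9% of all genes, and at 8 weeks 9 and 9, beside 1.85% and 7.94%. The 4 below Con at 6 weeks were C8g, Mbl2, Cd59a and Cr1l. For each of the 8 the exact two-sided permutation p at 4 weeks was 0.00794, the smallest that 5 against 5 can give. Linear trends of the CAC minus Con difference passed for 10 rising and 3 falling members, beside 3.35% and 12.3% of all genes. Among the members that passed, the steepest rise was that of C3, at 0.37 ± 0.05 per 2 weeks (adjusted p = 3.46e-06). The steepest falls among them were those of Mbl2, at -0.37 ± 0.08 (adjusted p = 0.000585), and C8g, at -0.33 ± 0.07 (adjusted p = 0.00156). The NCAC minus Con trend gave 0 members and 0% of all genes. The CAC minus NCAC trend gave 6 rising and 5 falling members, beside 4.38% and 24.2%.

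Membrane regulators went in both directions. Cd55 encodes decay-accelerating factor, which dissociates C3 convertases, and Cd59a a protein that stops C9 from polymerising. Cd55 measured 4.899, 5.349, 7.106, 6.603 and 11.82 TPM in Con and 7.366 to 11.51 (median 10.52) in CAC at 8 weeks, with overlap through Con replicate 5. NCAC livers measured 4.612, 3.722, 5.207, 5.598 and 6.65 TPM, all below CAC. Against NCAC it was higher by 0.95 ± 0.19 (adjusted p = 0.000206) at 6 and 0.85 ± 0.17 (adjusted p = 9.99e-05) at 8 weeks. Against Con it was higher at 8 weeks by 0.48 ± 0.17 (adjusted p = 0.0226). That call ended without Con replicate 1 (0.38, adjusted p = 0.0992) or without Con replicate 2. It ended too without libraries holding pancreatic transcripts (0.36, adjusted p = 0.148).

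Cd59a was lower. Con livers at 8 weeks measured 89.3, 76.98, 93.6, 89.55 and 75.23 TPM, and CAC livers 54.47, 50.53, 77.5, 52.98, 61.94, 59.6 and 68.04. All CAC libraries but replicate 3 lay below Con. The differences were -0.39 ± 0.11 (adjusted p = 0.00962) at 6 and -0.49 ± 0.10 (adjusted p = 9.8e-05) at 8 weeks against Con, and -0.61 ± 0.10 (adjusted p = 2.13e-06) against NCAC at 8. Quantile normalization moved the 8-week value against Con to -0.14 and ended the call, and the 6-week call ended without CAC replicate 1 (-0.30, adjusted p = 0.0763) or with median-of-ratios rescaling (-0.25, adjusted p = 0.0641). Cr1l encodes Crry, the rodent cofactor and decay regulator, and was the steadiest member, with an SD within groups of 0.0959. It was lower at 8 weeks by 0.19 on the log2 scale (-0.19 ± 0.06, adjusted p = 0.01), a difference close to the median of all genes, and it turned to 0.04 (median of ratios, adjusted p = 0.654) and 0.01 (quantile, adjusted p = 0.87).

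Among the recognition proteins was the largest fall of a member that passed the test. Mbl2 encodes mannose-binding lectin C, the start of the lectin pathway (chromosome 19, 30232942 to 30239687). Con livers at 8 weeks measured 1059, 1184, 1271, 1158 and 1211 TPM and NCAC livers 897.9 to 1227. CAC livers measured 420.8, 410.1, 1398, 531.3, 625.6, 416.6 and 541.2 TPM, so that 6 lay below every library of the other arms and replicate 3 above them. The difference from Con was -0.69 ± 0.17 (adjusted p = 0.00449) at 6 and -1.06 ± 0.16 (adjusted p = 1.15e-06) at 8 weeks, and -1.27 without replicate 3. Mbl1, which encodes mannose-binding lectin A, measured 283.4 to 485.7 TPM in Con and 225 to 521.5 in CAC and differed by -0.13 ± 0.14 (adjusted p = 0.483). The Mbl1 to Mbl2 ratio of TPM at 8 weeks was 0.234 to 0.41 in Con and 0.373 to 0.868 (median 0.642) in CAC, with overlap through replicate 3.

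CAC replicate 3 at 8 weeks stood nearest to the controls in most of the members that changed. Of the 13 members higher at that week it had the lowest of the 7 CAC values in 7 (C3, C4a, C4b, Serping1, Cfi, C4bp and Vtn). Of the 8 lower members it had the highest CAC value in 6 (Mbl2, C8g, Cd59a, Fcna, Cfp and C3ar1). Its C3 of 6170 TPM and C8a of 452.2 TPM still lay above every Con library, and its C8b of 215 TPM was the highest of the week. Leaving it out, the calls of C1qa, C1qc and Hc were gained, at adjusted p of 0.0448, 0.0124 and 0.0472. Its erythroid and neutrophil markers also stood apart. Erythroid markers summed to 9775 TPM against 38.65 to 2256 in the other CAC livers, and neutrophil markers to 81.88 against 9.414 to 21.43. Endothelial markers were the lowest there, at 83.61 against 89.82 to 212.2, though close to the next library. The part of these in its complement values was not tested.

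The C1q chains, properdin, ficolin A and the C3a receptor formed a separate group. Fcna encodes ficolin A, a lectin pathway sensor, and measured 53.67, 72.2, 56.51, 47.81 and 68.21 TPM in Con, 29.42 to 56.74 in NCAC and 12.1 to 64.27 (median 32.05) in CAC at 8 weeks. Cfp encodes properdin, which stabilises the alternative convertase. It measured 22.19, 37.62, 21.69, 25.24 and 27.77 TPM in Con, 15.14 to 26.98 in NCAC and 10.04 to 31.74 (median 15.06) in CAC. For both genes the CAC values spread across the ranges of the other arms. Fcna differed from Con by -0.85 ± 0.25 (adjusted p = 0.00561), Cfp by -0.65 ± 0.22 (adjusted p = 0.0162) and the receptor gene C3ar1, at 1.233 to 1.663 TPM in Con and 0.3965 to 1.682 in CAC, by -0.35 ± 0.14 (adjusted p = 0.0345). Against NCAC their differences were -0.39, -0.16 and -0.13, with adjusted p of 0.192, 0.564 and 0.449. The chains of C1q, the sensor of the classical pathway, did not pass in either comparison, at -0.44 (C1qa), -0.38 (C1qb) and -0.52 (C1qc) against Con with adjusted p of 0.119, 0.17 and 0.0504. C1qc passed when any 1 of 4 libraries was left out (CAC replicate 3, 5 or 7 or Con replicate 3, adjusted p of 0.0124 to 0.0423). At 8 weeks C1qb measured 39.49 to 74.86 TPM in NCAC, below every Con library (79.31 to 141.4), and 39.27 to 126.6 in CAC, overlapping both. Between NCAC and Con at that week it was the 1 member of 35 without overlap, beside 1.57% of all genes in either direction. C1qa and C1qc in NCAC, at 55.57 to 98.5 and 27.41 to 41.5 TPM, reached into the Con ranges. Rescaling by median of ratios left C1qb higher in CAC than in NCAC (0.68, adjusted p = 0.0259).

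These members moved with markers of Kupffer cells and macrophages. At 8 weeks 8 of 10 such markers were lower against Con, beside 35.3% of all genes. Against NCAC 0 were called, beside 48.2% of all genes in either direction. The summed level of the 10 markers was 416.1 to 697.7 TPM in Con, 225.1 to 367.5 in NCAC and 112.2 to 524.4 in CAC, the 524.4 being that of replicate 3. Across the 62 libraries, as deviations from group means, the C1q chains correlated with that sum at r = 0.9 to 0.92, Cfp at 0.89, Fcna at 0.84 and C3ar1 at 0.77. C5ar1 and C6, which were not called lower against Con, correlated with it as well, at 0.71 and 0.66. With the sum of B and plasma cell markers the C1q chains correlated at 0.69 to 0.76 and Cfp at 0.71. At 8 weeks 6 of 6 tested markers of those cells were lower against Con and 3 against NCAC, beside 35.3% and 43.1% of all genes. The sums of these markers were 88.77 to 420.5 TPM in Con and 25.76 to 143.7 in CAC. Points from a library share its tissue piece and scaling, and all these values are descriptions without a test. The C1q chains correlated with each other at 0.95 to 0.98. The part of the macrophage and B cell markers in these differences was not tested, and in bulk liver fewer macrophages and less RNA per macrophage cannot be told apart. Rescaling by median of ratios ended the calls of Fcna, Cfp and C3ar1, and Cfp was also lost without CAC replicate 4 or Con replicate 2. The C3ar1 call was lost in 7 of 12 fits that left out 1 library.

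**Figure D4:**
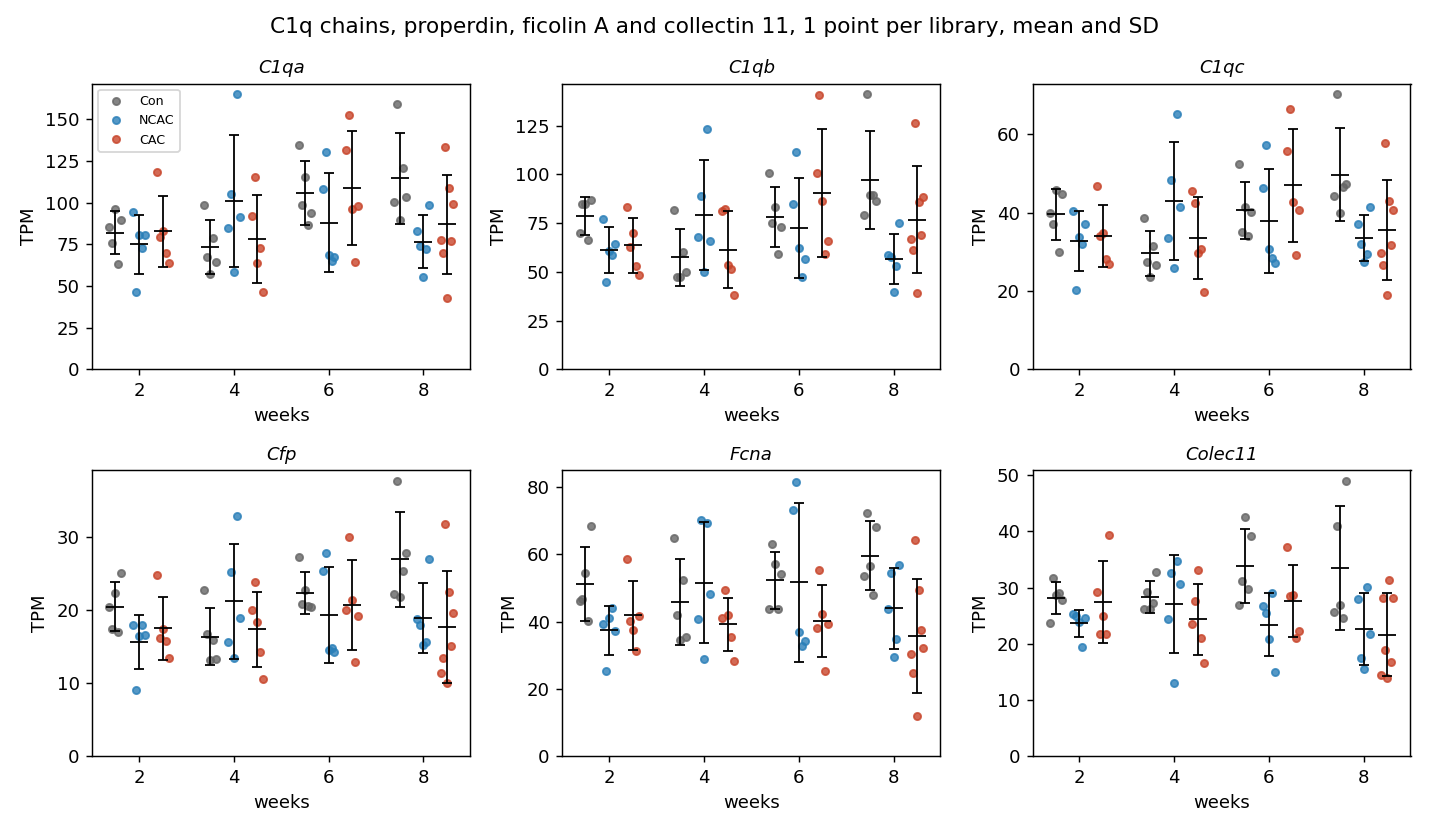
TPM of the C1q chains, Cfp, Fcna and Colec11 in every library by week and arm, with bars for mean and SD. At 8 weeks the Con libraries of Cfp ran from 21.69 to 37.62 TPM and the CAC libraries from 10.04 to 31.74, a range that held all NCAC libraries (15.14 to 26.98).

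The collectins of the lectin pathway differed. Colec11 measured 25.73, 41.04, 26.84, 24.55 and 49.05 TPM in Con, 15.51 to 30.18 in NCAC and 13.83 to 31.32 (median 18.9) in CAC. It was lower against Con by 0.61 on the log2 scale (-0.61 ± 0.21, adjusted p = 0.0139) but at -0.08 against NCAC (adjusted p = 0.762), and the call ended without Con replicate 5 (adjusted p = 0.0759). Rescaling also ended it, at -0.37 with median of ratios and -0.34 with quantile normalization (adjusted p = 0.198 and 0.239), as did a fit of that week alone (adjusted p = 0.0584). Its deviations correlated at 0.79 with the summed markers of stellate cells and at 0.36 with those of macrophages. Colec10 did not pass in any comparison of arms by the scaling used here. After median-of-ratios rescaling it was higher at 8 weeks against Con (0.62, adjusted p = 0.037) and against NCAC (0.67, adjusted p = 0.0247), and at 6 weeks against NCAC (0.71, adjusted p = 0.044). The receptor gene C5ar1, at 0.4884 to 2.077 TPM in CAC, did not pass either (0.18 ± 0.13, adjusted p = 0.267), though it did with quantile normalization (0.37, adjusted p = 0.0177).

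None of the 4 initiating proteases passed at any week by limma on the values as deposited. After rescaling by median of ratios both MASP genes were higher against Con at 8 weeks, Masp2 by 0.34 (adjusted p = 0.00011) and Masp1 by 0.90 (adjusted p = 0.0222). Quantile normalization gave 0.47 and 0.97 (adjusted p = 5.37e-06 and 0.0134). Masp2, the lectin pathway's C4-cutting protease, stayed between 88.71 and 145.3 TPM over all libraries. Masp1 measured 53.16, 12.73, 52.35, 30.24 and 60.51 TPM in Con and 41.79 to 79.84 in CAC at 8 weeks (0.65 ± 0.33, adjusted p = 0.105). Its lowest Con values came from replicates 2 and 4, the libraries of that group with pancreatic transcripts (Ctrb1 of 1906 and 281.8 TPM), and the difference moved to 0.02 without libraries that hold fat transcripts. At 2 weeks Masp1 in CAC, 28.47 to 47.16 TPM, lay below every Con library, 48.69 to 64.94, with a difference of -0.65 that did not pass, except in a fit of that week alone (adjusted p = 0.0193). Masp1 was the 1 member of 35 without overlap in that comparison, while 6.99% of all genes had none in either direction.

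C1ra and C1s1, the genes of the C1r and C1s proteases, are described because of a pattern seen in their values. They lie side by side on chromosome 6 (124512405 to 124523443 and 124530345 to 124542359). In 17 of 62 libraries both were under 140 TPM and in 43 both were at or above it, a limit set after the values were seen. In the 17 libraries C1ra ran from 71.69 to 128.9 TPM and in the 43 from 145.2 to 233.2, while C1s1 ran from 86.47 to 132.8 and from 156.4 to 272.3. The low state occurred in 3 of 20 Con, 7 of 20 NCAC and 7 of 22 CAC libraries. Their ratio stayed between 0.816 and 1.32 in all 62 libraries, and their deviations from group means correlated at 0.96. C1ra shares 48.0% of its 50-base stretches with C1rb and C1s1 shares 24.3% with C1s2, and how such reads were divided is not given. C1rb stayed at 9.061 to 13.51 TPM in Con at 2 weeks and 12.84 to 15.05 in NCAC at 6 weeks, the groups without a low library. In every other group its highest library was at 69.28 TPM or above. In NCAC at 8 weeks, with 3 low libraries, its median was 74.13 TPM. The relation of C1rb to the low state was not tested. The differences of CAC from Con at 8 weeks, -0.18 ± 0.24 and -0.07 ± 0.27 (adjusted p = 0.572 and 0.873), hold both states.

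Cfd, the gene of factor D or adipsin, is known as a product of fat cells and was chosen for its spread. Con livers at 8 weeks measured 0, 242.1, 27.86, 127.3 and 0.6157 TPM, NCAC livers 384.4, 12.11, 0, 0 and 567.2, and CAC livers 0 to 40.48. Libraries of 1 group thus ran from 0 to 242.1 TPM in Con and to 567.2 in NCAC. All 19 libraries with at least 1 TPM of Adipoq, the adiponectin gene of fat cells, held at least 7.294 TPM of Cfd, and the 43 others at most 5.556. The CAC minus Con difference at 8 weeks, -3.08 ± 1.43 (adjusted p = 0.078), was -0.06 without those 19 libraries. Without the same libraries the count of members called at 8 weeks was 8 higher and 5 lower, beside 3.36% and 25.1% of all genes. That fit had 2 Con and 6 CAC libraries of the week left, and C3, C4b, C8a, Serping1, Cfi, C4bp, Vtn, Clu, Mbl2, C8g and Cd59a were among the 13.

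**Figure D5:**
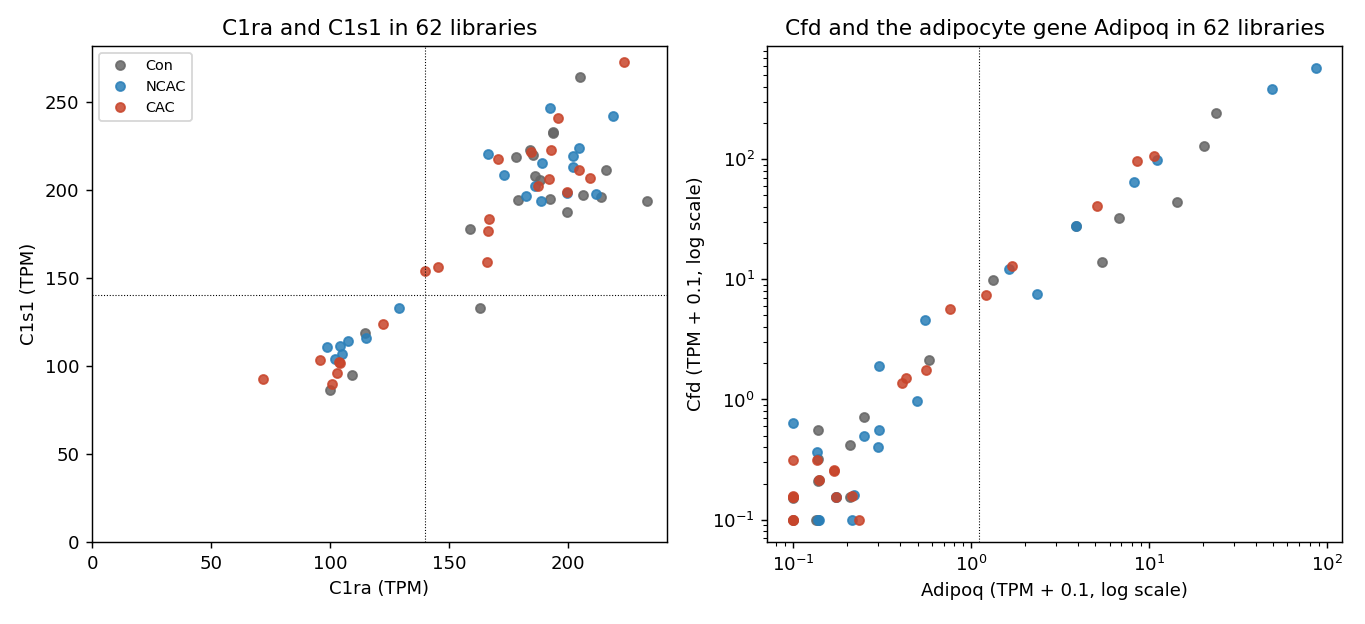
Left, C1ra against C1s1 in 62 libraries (TPM), with dotted lines at 140 TPM, where 17 libraries lie low in both genes. Right, Cfd against Adipoq (TPM + 0.1, log axes), where the 19 libraries at or above 1 TPM of Adipoq, right of the dotted line, held 7.294 to 567.2 TPM of Cfd.

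Other genes of the pathway were followed through a list of 29 complement genes outside the 35, of which 17 could be tested. Against Con 0, 1, 4 and 4 were higher at the 4 weeks, beside 0.00822%, 1.30%, 5.00% and 5.87% of all genes. Lower were 0, 0, 0 and 2, beside 0%, 0.609%, 10.3% and 35.3%. At 8 weeks C7, a pore subunit of low level, measured 0.5813 to 2.193 TPM in Con and 0.994 to 8.319 in CAC (1.30 ± 0.22, adjusted p = 9.19e-06). The pentraxin gene Crp was higher by 0.76 and Cpn2, the regulatory subunit of carboxypeptidase N that trims C3a and C5a, by 0.52. Cpn1, the gene of that enzyme's other subunit, was not called, with means of 130.2 TPM in Con and 127.7 in CAC. Cd93, a surface protein of endothelial and myeloid cells, was higher by 0.42. The 2 lower genes were the integrin chain Itgb2, part of complement receptors 3 and 4 on leukocytes, at -0.83, and C1qbp, a mitochondrial protein that can bind C1q, at -0.32. With NCAC against Con 0 of the 17 passed at any week, beside 0% of all genes at 2, 4 and 6 weeks and 0.181% at 8.

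Depth per library is unknown, and 9 libraries held at least 100 TPM of the pancreatic gene Ctrb1 and 12 that or at least 10 TPM of the muscle gene Acta1. Hepatocyte markers were at 97330 to 144200 TPM in sum over all groups. Against Con at 8 weeks 9 of 9 pancreatic acinar markers were lower and 4 of 7 endothelial markers higher, beside 35.3% and 5.87% of all genes. Con replicates 2 and 4 of that week held 1906 and 281.8 TPM of Ctrb1. Against NCAC 0 acinar markers were called and 4 endothelial markers were higher, beside 5.09% of all genes. Cholangiocyte markers summed to 33.09 to 42.94 TPM in Con and 46.01 to 72.9 in CAC, with 2 of 4 tested higher and 2 lower. The part of these cells in the members' differences was not tested. Without the 12 libraries the members called at 8 weeks against Con were 11 higher and 6 lower, beside 5.07% and 34.8% of all genes.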

How the data were processed

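As deposited, the values were TPM in 1 table of 62 libraries by 47643 gene symbols, made from stranded mRNA libraries per the labels' protocols, with genome build mm10 per the submitters' processing notes. Neither aligner nor quantifier is named (not given in the sources used here). Depth is unknown and no count test was run. Each library sums to 1e+06. The 12160 genes reaching 1 TPM in 5 or more libraries were fitted as log2(TPM + 1) with limma 3.58.1 in R 4.3.3. The fit had 12 group means, all 62 libraries and moderation with a trend. A pseudocount of 1 understates the change of low genes. Calls are at a Benjamini-Hochberg adjusted p under 0.05 within a comparison, with no minimum fold. Members also had exact two-sided permutation tests, printed unadjusted, for 35 members in each of 12 comparisons. All differences are log2 values with standard errors (SE).

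The members and lists were chosen with earlier results of these data known. 1 gene of the list of other complement genes is not reported here. Members described in full were the 12 called ones with the largest difference of CAC from Con at 8 weeks, up to 3 more in each other comparison of arms, and C3, Hc, C9 and Cfb. Gene positions are from GENCODE vM21. Promoters are from RefSeq. The share of a gene's 50-base stretches found in other genes was taken over GENCODE transcripts. Scripts were tested on simulated data. Python 3.11.15, NumPy 2.4.6 and matplotlib 3.10.9 were used for values and plots.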

Additional observations from a re-analysis of the deposited data

Results flagged for a closer look

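Some single libraries at 8 weeks stood far from the rest of their group, by Dixon's test of the gap to the nearest library on the log2(TPM + 1) scale. Of 105 groups of values (35 members in 3 arms) 8 were picked out, where chance alone picks about 1 in 20. In Con these were C1qb in replicate 2 (141.4 TPM, the highest), C6 in replicate 5 (10.46, the highest), C8b in replicate 3 (93.17, the lowest) and Masp2 in replicate 2 (88.71, the lowest). In NCAC it was C4a in replicate 2 (113.8, the highest). In CAC they were Hc in replicate 4 (254 TPM), Cfd in replicate 7 (40.48 TPM) and Mbl2 in replicate 3 (1398 TPM), each the highest.

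The difference between arms changed over the weeks for several members, by a limma test of the linear trend itself, in log2 units per 2 weeks. For CAC minus Con it was positive for C3 (0.371), C4b (0.283), C8a (0.255), Cd55 (0.245), Cfi (0.228), Serping1 (0.163), Vtn (0.158), Cfb (0.158), C4bp (0.137) and Clu (0.126), and negative for Mbl2 (-0.365), C8g (-0.327) and Cd59a (-0.226). For CAC minus NCAC it was positive for Cd55 (0.42), C8a (0.26), C3 (0.25), C6 (0.234), Cfi (0.208) and C4b (0.154), and negative for C8g (-0.385), Mbl2 (-0.367), Cd59a (-0.225), C2 (-0.191) and Cr1l (-0.107). Both sets of trends share the CAC libraries. The trends of C8a, Cd55 and C4bp against Con, and of C2, C6, C4b and C8a against NCAC, lost their call when single libraries were left out. C4b alone passed the test for a step between neighbouring weeks against Con, at 0.831 from 2 to 4 weeks, beside 0.0658% of all genes. That call was lost in 14 of the 20 fits that left out 1 library. For the same step 9 members had an unadjusted limma p under 0.05. Without CAC replicate 3 of 2 weeks C3 (0.81), Serping1 (0.63) and Clu (0.57) passed as well.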

How the results depend on the processing

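Counts of members called held within 1.5 times in most alternatives. Many of these left out only 1 library, and a count that stayed at 0 was taken as held. Against Con at 4 weeks (8 members) they were 5 with quantile normalization, 4 in a fit of that week alone and 1 with a minimum log2 difference of 1. At 6 weeks (13) they were 8 without the libraries with fat transcripts and 1 with the minimum difference, and at 8 weeks (21) 13 and 5. Against NCAC at 4 weeks (8) they were 5 with quantile normalization, 2 in the fit of that week, 1 with the minimum difference and 3 without the pancreatic or the other-tissue libraries. At 6 and 8 weeks against NCAC (12 and 18) the minimum difference left 0 and 2. At 2 weeks the fit of that week alone called 1 member against Con (Masp1, lower) and 1 against NCAC (Mbl1, higher). Of all genes it called 1.37% higher and 4.56% lower against Con, and 2.71% and 4.98% against NCAC. The trend of CAC minus Con (13) gave 8 without the pancreatic, 7 without the other-tissue and 7 without the fat libraries, and 0 with the minimum difference. The trend of CAC minus NCAC (11) gave 6 without the other-tissue libraries and 0 with the minimum difference. The single step call (C4b, 2 to 4 weeks) became 0 without a filter, with either rescaling, with the replicate block, with the minimum difference and without the pancreatic, other-tissue or fat libraries. The cause of each was not tested, except that fewer libraries leave fewer degrees of freedom.

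With 1 library left out, counts against Con ran from 6 to 8 at 4 weeks, 10 to 13 at 6 and 17 to 24 at 8. Against NCAC they ran from 6 to 8, 10 to 14 and 17 to 19. The trends ran from 10 to 16 (CAC minus Con) and 8 to 16 (CAC minus NCAC), the step from 2 to 4 weeks from 0 to 4 and that from 6 to 8 weeks from 0 to 2. Rescaling turned Cr1l at 8 weeks to 0.035 (median of ratios) and 0.013 (quantile). Same-numbered libraries correlated from -0.368 to 0.364 in their deviations over all 4 weeks sampled. These values have no reference spread and cannot exclude shared handling, and the main fit used no pairing. The replicate block called 19 members against Con at 8 weeks (12 higher, 7 lower), ending the calls of Cd55 and C3ar1. Leaving out libraries with pancreatic, muscle or fat transcripts was chosen after seeing the data, the other alternatives beforehand. Without read counts, depth limits for C3ar1, C5ar1 and other low members are unknown.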
